A study of Sus scrofa with 15 samples.

Results

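The 7 genes described here, LINGO1, THBS4, TVP23A, KCNJ5, MYLK3, TYRO3 and SIX2, were picked because their testis libraries from piglets on estradiol formula were higher than those of another diet. The members were therefore chosen by the measured values of M + E2, and every difference of M + E2 from another diet describes that choice and is no test of it. All 7 were found by symbol among the 30476 genes of the deposited table. Which other diet served for the choice is not stated, so a low level in any of the remaining groups may also have entered it.

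Testis RNA of male piglets was sequenced on postnatal day 21, with 15 libraries in 5 diet groups of 3. All piglets suckled for the first 2 days and were then bowl-fed. Sow piglets received sow milk, Milk piglets a cow's milk-based formula and Soy piglets a soy-based formula. M + G piglets received the cow's milk formula with genistein, a plant isoflavone that binds estrogen receptors, at 84 mg/L. M + E2 piglets received the cow's milk formula with 17β-estradiol, with an aim, by the labels, of 15 to 30 pmol/L in serum. The serum levels that were reached are not part of the analysed files and may differ from this aim. The piglets came from several litters of Dutch Landrace Duroc sows, and no batch of extraction or sequencing was given for the libraries. Whole frozen testis was used, so for each gene fewer cells of a type and less RNA per cell cannot be told apart.

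Estradiol acts mainly through the nuclear receptors ESR1 and ESR2, which bind DNA and change transcription, and through the membrane receptor GPER1. In the young testis these receptors have been described in Leydig, Sertoli and germ cells, and Sertoli cells, which line the tubules and nurse the germ cells, still multiply at this age. The chosen genes do not form a single pathway. LINGO1, TYRO3 and KCNJ5 encode membrane proteins (a co-receptor, a receptor tyrosine kinase and a potassium channel), THBS4 a secreted matrix protein, TVP23A a Golgi protein, MYLK3 a kinase of the contractile machinery and SIX2 a homeobox transcription factor.

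The 15 libraries held 6097552 to 9488579 gene-assigned reads, with a median of 8198038. Levels are CPM, read counts scaled to a common library size after TMM normalization over all 15 libraries, and are given as mean ± SD with n = 3. They are not corrected for gene length, so no gene was compared with another. In the column names 1 Sow and 1 Soy library carry no number and are called Sow unnumbered and Soy unnumbered. Of the 105 pairs of libraries, 4 correlated below 0.9 and Sow 2 was in each of them. Sow 2 is therefore in the levels but not in the differences and tests, where Sow has 2 libraries. The methods of the study leave out a library by the same limit. Differences are log2 fold changes ± SE from 1 edgeR quasi-likelihood fit of the 15634 genes that passed the expression filter. A gene was called where it changed at least 2-fold and its p, adjusted over all these genes by Benjamini and Hochberg, was at most 0.05.

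All 7 genes passed the filter, but SIX2 did so only through its M + E2 libraries. On the Sscrofa11.1 assembly they lie on 6 chromosomes. TYRO3 is at chr1:129811540-129829395, THBS4 at chr2:88729531-88780759, MYLK3 at chr6:37850117-37920862, LINGO1 at chr7:57684591-57890121 and KCNJ5 at chr9:55836777-55861288. TVP23A (chr3:32275481-32318598) and SIX2 (chr3:95460046-95463428) share a chromosome without being neighbours. All are annotated as protein-coding. TVP23A overlaps the protein-coding NUBP1, LINGO1 overlaps a long non-coding RNA gene, and THBS4 overlaps a tRNA gene and a long non-coding RNA gene. Whether reads were counted by strand is not given in the sources used here, so reads of overlapping genes may have been shared.

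LINGO1, a leucine-rich repeat protein of the Nogo receptor complex that restrains axon growth and myelination, had the largest difference between M + E2 and Sow among the 6 genes other than SIX2. Its level was 48.0 CPM in M + E2 1, 43.5 CPM in M + E2 2 and 36.1 CPM in M + E2 3. In the other formula groups it was 14.6, 15.7 and 20.6 CPM in M + G 1 to 3, 13.8, 11.7 and 12.4 CPM in Soy unnumbered, 2 and 3, and 13.5, 6.94 and 12.2 CPM in Milk 1 to 3. Each M + E2 library was above every library of the other diets, and the nearest was M + G 3. In Sow it was 6.05 CPM in the unnumbered library, 2.04 CPM in Sow 2 and 3.00 CPM in Sow 3, below every formula-fed library. The means thus ran from 3.70 ± 2.09 CPM in Sow through 10.9 ± 3.45 in Milk, 12.7 ± 1.05 in Soy and 17.0 ± 3.17 in M + G to 42.5 ± 5.99 in M + E2. Milk and Soy overlapped in this order, and the other neighbours were separate.

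TYRO3 is a receptor of the TAM family, with AXL and MERTK, which binds GAS6 and protein S on dying cells and takes part in their removal by Sertoli cells. Its level was 52.9, 48.8 and 59.1 CPM in M + E2 1 to 3 and 42.5, 36.2 and 52.4 CPM in M + G 1 to 3. M + G 3 thus lay within the range of the M + E2 libraries, while the other M + G libraries were below it. The remaining libraries had 29.6, 20.3 and 34.1 CPM in Milk 1 to 3, 31.8, 34.0 and 33.5 CPM in Soy unnumbered, 2 and 3, and 33.1, 25.7 and 33.7 CPM in Sow unnumbered, 2 and 3. All M + G libraries exceeded those of Milk, Soy and Sow, which overlapped among themselves. The group means were 28.0 ± 7.02 CPM in Milk, 30.8 ± 4.44 in Sow, 33.1 ± 1.14 in Soy, 43.7 ± 8.17 in M + G and 53.6 ± 5.18 in M + E2.

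KCNJ5, a subunit of the G protein-gated inward rectifier channels that calm excitable cells in the heart and adrenal cortex, had another order of diets. Its level was 41.0, 34.8 and 54.6 CPM in M + E2 1 to 3. Soy had 36.2 CPM in the unnumbered library and 41.5 CPM in Soy 3, both within the range of M + E2, but only 16.5 CPM in Soy 2. Sow unnumbered, 2 and 3 had 24.3, 24.8 and 31.1 CPM, M + G 1 to 3 had 14.8, 25.9 and 24.8 CPM, and Milk 1 to 3 had 12.6, 13.9 and 22.4 CPM. Milk was the lowest group and lay wholly below Sow. The means were 16.3 ± 5.35 CPM in Milk, 21.8 ± 6.15 in M + G, 26.8 ± 3.80 in Sow, 31.4 ± 13.2 in Soy and 43.5 ± 10.2 in M + E2. All groups next to each other in this order overlapped.

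THBS4, a thrombospondin of the extracellular matrix best known from tendon and muscle, was high in both supplemented groups. It reached 72.4, 68.9 and 44.9 CPM in M + E2 1 to 3 and 37.6, 34.1 and 54.2 CPM in M + G 1 to 3. These groups overlapped, since M + G 3 exceeded M + E2 3. Milk 1 to 3 had 26.3, 13.6 and 19.2 CPM, Soy unnumbered, 2 and 3 had 20.6, 14.0 and 18.0 CPM, and Sow unnumbered, 2 and 3 had 19.2, 13.3 and 14.4 CPM. The lowest M + G library was above all of these. The means were 15.6 ± 3.17 CPM in Sow, 17.6 ± 3.32 in Soy, 19.7 ± 6.35 in Milk, 42.0 ± 10.7 in M + G and 62.1 ± 14.9 in M + E2.

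TVP23A, a membrane protein of the trans-Golgi network related to a yeast protein of late Golgi vesicles, was near 1 level in all diets without estradiol. It had 23.8 CPM in M + E2 1 and 13.7 CPM in each of M + E2 2 and 3. The highest of the other 12 libraries was M + G 3 at 6.12 CPM, and the lowest M + E2 library was 2.23 times that value. The other libraries had 3.85 and 5.12 CPM in M + G 1 and 2, 3.99, 3.72 and 5.85 CPM in Milk 1 to 3, 4.47, 5.04 and 5.01 CPM in Soy unnumbered, 2 and 3, and 4.17, 1.61 and 4.19 CPM in Sow unnumbered, 2 and 3. The means of the diets without estradiol rose only from 3.32 ± 1.49 CPM in Sow over 4.52 ± 1.16 in Milk and 4.84 ± 0.323 in Soy to 5.03 ± 1.14 in M + G, and neighbours in this order overlapped, against 17.1 ± 5.85 in M + E2. NUBP1, the gene that overlaps it, had group means between 23.8 CPM in Sow and 27.2 CPM in M + G, and its log2 differences between M + E2 and the other diets lay between −0.04 and 0.13.

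MYLK3 is the myosin light chain kinase of heart muscle, which phosphorylates the regulatory light chain of myosin. Its level was 7.23, 7.41 and 9.16 CPM in M + E2 1 to 3. M + G 3, at 6.90 CPM, came within 1.05 times of the lowest of these, while M + G 1 and 2 had 3.59 and 4.18 CPM. Milk 1 to 3 had 3.70, 2.48 and 3.49 CPM, Soy unnumbered, 2 and 3 had 2.89, 3.51 and 2.39 CPM, and Sow unnumbered, 2 and 3 had 2.82, 2.63 and 3.47 CPM. The separation of M + E2 from the other diets was thus narrow and rested on a single M + G library. It came from 50 reads in M + E2 1 and 62 in M + G 3, so this gap was within counting error. The means were 2.93 ± 0.559 CPM in Soy, 2.98 ± 0.443 in Sow, 3.22 ± 0.650 in Milk, 4.89 ± 1.76 in M + G and 7.93 ± 1.07 in M + E2, and the Soy, Sow and Milk libraries overlapped.

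SIX2, a homeobox factor known for keeping kidney progenitor cells undifferentiated, was measured with very few reads. It had 9, 11 and 11 reads in M + E2 1 to 3, or 1.30, 1.41 and 1.17 CPM. The other 12 libraries had between 0 and 4 reads. Pooled over libraries, 31 reads in M + E2 stood against 4 in Sow, 9 in Milk, 6 in Soy and 8 in M + G. At these counts only the gap to M + E2 can be described, and the order of the other diets is within counting error. Relative to the library sizes the ratio of M + E2 was 7.27 to Sow (exact 95% counting interval 2.57 to 28.3), 3.26 to Milk (1.52 to 7.79), 5.46 to Soy (2.24 to 16.0) and 4.23 to M + G (1.90 to 10.6). These intervals cover counting error only, and no fold change of SIX2 among the other diets is given.

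**Figure D1:**
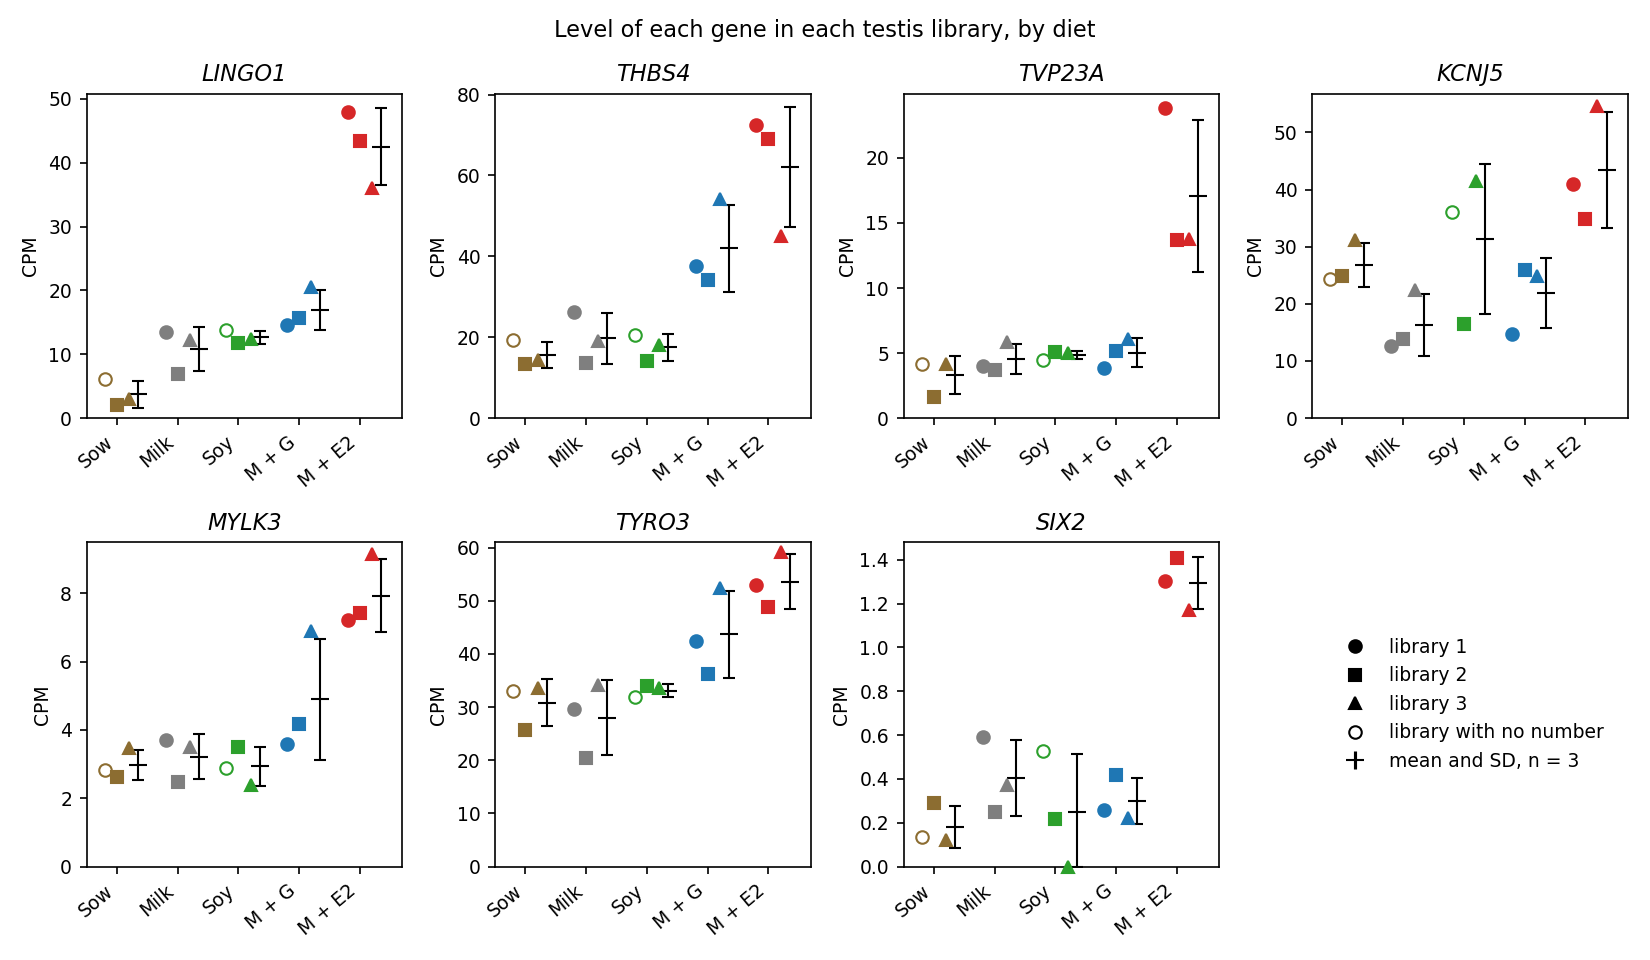
Level in CPM (vertical axis, starting at 0) of each of the 7 genes in each of the 15 testis libraries, by diet, with the mean and SD of each group of 3 beside the points (the SD bar of SIX2 in Soy stops at 0). The M + E2 libraries lie above all 12 others for LINGO1, TVP23A, MYLK3 and SIX2, and M + G 3 or Soy libraries reach them for THBS4, TYRO3 and KCNJ5.

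The 3 M + E2 libraries were above all 12 others for 4 of the 7 genes (LINGO1, TVP23A, MYLK3 and SIX2), while 2.71% of the genes tested (423 of 15634) had this pattern. The rule used these same libraries, so nothing was read from this share. M + G was the second highest group for 5 of the 7 (LINGO1, THBS4, TVP23A, MYLK3 and TYRO3), and M + G 3 was the highest library outside M + E2 for the same 5. How many of all genes had either pattern was not counted, so nothing was read from it. Sow was the lowest group for LINGO1, THBS4 and TVP23A, Milk for KCNJ5 and TYRO3, and Soy for MYLK3, while the order for SIX2 was within counting error. No single M + E2 library was the highest throughout: M + E2 1 was highest for LINGO1, THBS4 and TVP23A, M + E2 2 for SIX2, and M + E2 3 for KCNJ5, MYLK3 and TYRO3.

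The fitted differences between M + E2 and each other diet give the size of what was chosen. Relative to Sow the log2 fold change was 3.17 ± 0.35 for LINGO1, 1.96 ± 0.32 for TVP23A, 1.82 ± 0.33 for THBS4, 1.26 ± 0.33 for MYLK3, 0.62 ± 0.21 for TYRO3 and 0.58 ± 0.38 for KCNJ5. Relative to Milk it was 1.94 ± 0.28 for LINGO1, 1.89 ± 0.28 for TVP23A, 1.63 ± 0.28 for THBS4, 1.39 ± 0.34 for KCNJ5, 1.28 ± 0.29 for MYLK3 and 0.91 ± 0.19 for TYRO3. KCNJ5 thus differed most from Milk, and TYRO3 differed less than 2-fold from either diet. Relative to Soy the values were 1.76 ± 0.28 for THBS4, 1.76 ± 0.27 for TVP23A, 1.69 ± 0.27 for LINGO1, 1.37 ± 0.29 for MYLK3, 0.64 ± 0.19 for TYRO3 and 0.41 ± 0.33 for KCNJ5. Relative to M + G they were 1.73 ± 0.27 for TVP23A, 1.29 ± 0.27 for LINGO1, 0.96 ± 0.33 for KCNJ5, 0.67 ± 0.27 for MYLK3, 0.53 ± 0.27 for THBS4 and 0.27 ± 0.19 for TYRO3. TVP23A was the gene whose difference varied least with the diet it was set against, from 1.73 to 1.96.

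**Figure D2:**
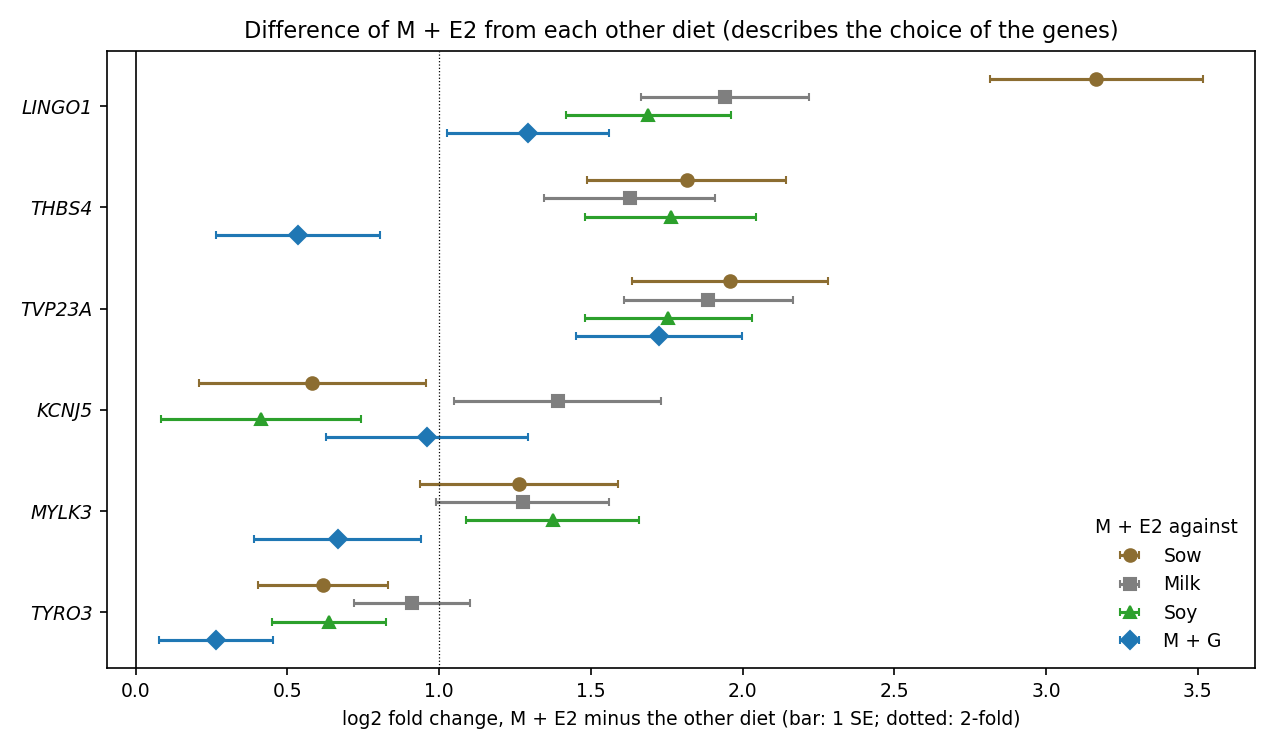
Log2 fold change of M + E2 minus each other diet (horizontal axis) for 6 of the genes, with bars of 1 SE and a dotted line at 2-fold. SIX2 is left out because of its few reads. All points lie above 0, as the choice of the genes set out, and for LINGO1, THBS4, TVP23A, MYLK3 and TYRO3 the difference from M + G is the smallest of the 4.

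The median of these 6 differences was 1.54 against Sow, 1.51 against Milk, 1.53 against Soy and 0.81 against M + G, while the median over all genes tested was 0.01, −0.03, −0.03 and −0.02. Against Sow, 5 of the 7 genes were called higher (LINGO1, THBS4, TVP23A, MYLK3 and SIX2), beside 1.44% of all genes. Of these, SIX2 passed the filter only through its M + E2 libraries and had 1 read in each Sow library of the fit. Against Soy, 3 were called (LINGO1, THBS4 and TVP23A), beside 0.0256%, which was 4 genes in all. Against Milk and against M + G none of the 7 was called by edgeR's quasi-likelihood test, and of all genes 0% and 0% were, although the unadjusted p was under 0.05 for 7 and for 5 of the members and for 2772 and 1096 of all genes. DESeq2's Wald test called 5 of the members against Milk, beside 64 of 14109 genes, and 2 of the members against M + G, beside 6 of 15625 genes. The libraries of M + E2 lay wholly above those of Sow for all 7 genes (33.6% of all genes), above Milk for all 7 (9.72%), above Soy for 6, without KCNJ5 (12.8%), and above M + G for 5, without THBS4 and TYRO3 (10.1%). The genes were chosen by their M + E2 values, so nothing was read from these calls, p-values and counts.

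These counts rested on single libraries, and the counts over all genes moved with them. The count against Sow fell from 5 to 1, LINGO1, without Sow unnumbered or without any 1 of the M + E2 libraries, and to 0 without Sow 3. Over all genes the count against Sow fell from 225 to 1 without Sow unnumbered, to 3 without any 1 of the M + E2 libraries and to 0 without Sow 3. The count against Soy fell from 3 to 0, and that over all genes from 4 to 0, without Soy unnumbered, without Soy 2 or without any 1 of the M + E2 libraries. The count against Milk rose from 0 to 6 without Milk 3, with SIX2 the exception, and that over all genes from 0 to 741 of 15620. The sizes moved too, and the log2 fold change of TVP23A relative to Sow ran from 1.55 to 2.49 over 13 alternatives, while that of THBS4 relative to M + G ran from 0.39 to 0.76 over 14.

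The 4 diets without added estradiol were then compared with each other, which is the test that the M + E2 libraries do not enter except through the shared spread. Low levels in any of these diets may still have entered the choice of the genes. SIX2 is left out of this account, since only its M + E2 libraries brought it into the fit and it had 4 reads or fewer in each library of these diets. None of the other 6 genes was called in an F test over Sow, Milk, Soy and M + G, in which 0.032% of all genes (5) were called. The adjusted p was 0.320 for LINGO1, 0.333 for THBS4, 0.477 for TYRO3, 0.496 for KCNJ5, 0.508 for MYLK3 and 0.928 for TVP23A (edgeR quasi-likelihood F test, Benjamini-Hochberg). At an unadjusted p under 0.05 there were 3 of the 6 (LINGO1, THBS4 and TYRO3) and 1593 of all genes. With DESeq2's likelihood-ratio test, added after the data were seen, LINGO1 (adjusted p = 0.00105) and THBS4 (adjusted p = 0.00293) passed, beside 170 of 15625 genes. With all 3 Sow libraries LINGO1 had an adjusted p of 0.0499 and THBS4 of 0.0591 (edgeR quasi-likelihood), and 50 of 15328 genes passed. Over 19 alternatives the adjusted p ranged from 0.00105 to 0.825 for LINGO1, from 0.00293 to 0.920 for THBS4 and from 0.443 to 0.986 for TVP23A.

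In the 6 pairs of diets without estradiol none of these 6 genes was called by edgeR's quasi-likelihood test. Of all genes, 0.0192% were called for Milk against Sow, 0.0128% for Soy against Sow, 0.0576% for M + G against Sow, and 0%, 0% and 0% for Soy against Milk, M + G against Milk and Soy against M + G. At an unadjusted p under 0.05 there were 2, 1, 2, 1, 3 and 2 of the members in these pairs, in the same order, beside 1895, 2344, 3684, 381, 406 and 570 of all genes. The libraries of the pair did not overlap for 3 members in Milk against Sow (31% of all genes), 2 in Soy against Sow (37.3%), 5 in M + G against Sow (53.9%), 0 in Soy against Milk (4.62%), 3 in M + G against Milk (4.66%) and 4 in Soy against M + G (7.89%), where SIX2 is 1 of the members in Milk against Sow and in M + G against Sow. The members' shares were thus near the background in the pairs with Sow, and above it in M + G against Milk and in Soy against M + G. Low levels in Milk or Soy may have entered the choice, so nothing was read from these shares.

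LINGO1 carried the largest of these differences among the 6 genes other than SIX2. Its log2 fold change relative to Sow was 1.87 ± 0.34 in M + G (adjusted p = 0.0704, edgeR quasi-likelihood), 1.48 ± 0.34 in Soy (adjusted p = 0.320) and 1.22 ± 0.34 in Milk (adjusted p = 0.360). None of these passed the threshold, although every formula-fed library was above every Sow library. LINGO1 and THBS4 were called in M + G against Sow with all 3 Sow libraries (beside 1585 of 15328 genes), with DESeq2's Wald test (343 of 12897) and with edgeR's exact test (955 of 14736). LINGO1 was also called in Soy against Sow with the Wald test (34 of 13806 genes) and the exact test (54 of 14732), and in the 13 numbered libraries without a replicate block (2260 of 15697). Low levels in Sow may have been part of the choice, so nothing was read from these calls against Sow.

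THBS4 was higher in M + G than in each of the other diets without estradiol in every library, but the differences did not pass. The log2 fold change was 1.28 ± 0.32 relative to Sow (adjusted p = 0.124, edgeR quasi-likelihood), 1.09 ± 0.28 relative to Milk (adjusted p = 0.940), and −1.23 ± 0.28 for Soy relative to M + G (adjusted p = 0.550). Unadjusted, the edgeR p for Milk was 0.00167 and that for Soy 0.000676. The THBS4 difference between Soy and M + G was called by DESeq2's Wald test (beside 10 of 15625 genes) and by edgeR's exact test (8 of 14505).

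For TYRO3 the M + G libraries lay above those of Milk, with a log2 fold change of 0.65 ± 0.19 (adjusted p = 0.940, edgeR quasi-likelihood). KCNJ5 differed by 0.98 ± 0.34 between Soy and Milk (adjusted p = 0.999) and by −0.81 ± 0.37 between Milk and Sow (adjusted p = 0.410), with edgeR's quasi-likelihood test. MYLK3 was at −0.71 ± 0.29 in Soy relative to M + G (adjusted p = 0.999, edgeR quasi-likelihood). TVP23A had log2 fold changes between −0.03 and 0.23 among these diets, each smaller than its SE. Of 6 members without SIX2, the median of M + G relative to Milk was 0.63 and relative to Sow 0.47, while for Soy relative to Milk it was 0.19 and for Milk relative to Sow 0.03.

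**Figure D3:**
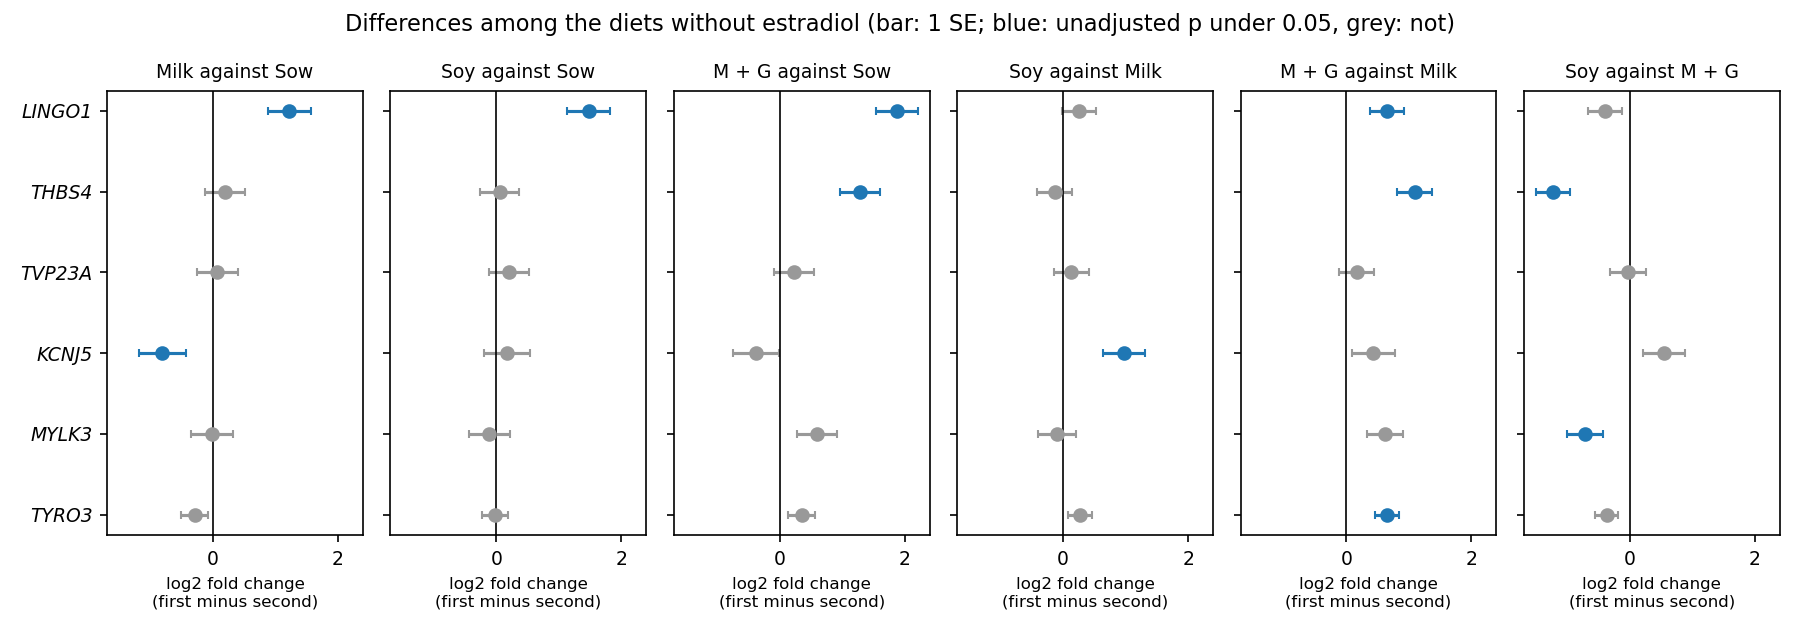
Log2 fold change (horizontal axis, first diet minus second) of 6 genes in the 6 pairs of diets without added estradiol, with bars of 1 SE. Blue points have an unadjusted p under 0.05 (11 of 36) and no point passed after adjustment over all genes.

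Each gene was set beside the family it belongs to, on lists of paralogs, ligands, receptors and partners. Of the 77 other family genes tested, none was called in any of the 10 pairs of diets. Over all genes, 1.44% were called higher in M + E2 than in Sow, 0.0256% than in Soy and 0% than in Milk or M + G. In the pairs without M + E2 at most 0.0576% were called, in M + G against Sow. Nothing was therefore read from the count of family genes. In M + E2 relative to Milk, 32 of the 77 were above 0 and their median was −0.10, beside −0.03 over all genes. Of the 77, 1 gene or 1.3% had its M + E2 libraries above all others, beside 2.71% of all genes, and this was EYA4, a cofactor of SIX2 and its paralogs, at 5.31 ± 0.385 CPM in M + E2 and 3.34 to 3.47 CPM in the means of Milk, Soy and M + G, with Sow between them.

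In the LINGO1 list, LINGO3 and LINGO4 had 5 reads or fewer in every library and were not tested. RTN4R, the Nogo receptor that LINGO1 joins, had 8.85 ± 4.63 CPM in M + E2 and 3.37 ± 0.664 in Sow (log2 fold change 1.17 ± 0.42, adjusted p = 0.0798, edgeR), and its means in the other diets were 4.36 CPM in Soy, 4.63 in Milk and 4.90 in M + G. Its ligand MAG, a myelin glycoprotein, had its lowest mean in M + E2, with 2.94 ± 1.58 CPM in M + E2 and 10.9 ± 2.81 CPM in Soy (log2 fold change −1.93 ± 0.47, adjusted p = 0.136, edgeR). Neither passed the test. Of 13 genes of this list tested, 5 were above 0 in M + E2 relative to Milk. Relative to Sow, 9 were above 0 in M + E2, 11 in Milk, 12 in Soy and 11 in M + G.

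In the thrombospondin list, THBS1 and THBS2, which also inhibit vessel growth, had their highest means in Milk or Soy and not in M + E2. THBS1 had 38.7 ± 12.3 CPM in M + E2, 64.3 ± 43.5 in Milk and 64.4 ± 57.4 in Soy. THBS2 had 82.0 ± 7.17 CPM in M + E2 and 164 ± 107 in Milk. The spread of both within Milk and Soy was as large as these differences, and none passed.

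Among the partners of TYRO3, AXL also had its highest means in the supplemented groups. AXL had 292 ± 11.4 CPM in M + E2, 235 ± 54.1 in M + G, 182 ± 39.3 in Milk, 181 ± 19.5 in Soy and 149 ± 27.6 in Sow (M + E2 relative to Sow 0.77 ± 0.22, adjusted p = 0.0519, edgeR). GAS6, the ligand that all TAM receptors share, had 54.1 ± 8.51 CPM in Sow and 92.5 ± 9.03 in M + E2 (0.58 ± 0.32, adjusted p = 0.217, edgeR). MERTK had group means between 14.6 and 19.0 CPM. All were under the threshold.

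For KCNJ5, the partner subunit KCNJ3 had 2.40 ± 0.465 CPM in M + E2 and means of 1.36 to 1.50 CPM in the other diets (0.66 ± 0.35 relative to Milk, adjusted p = 0.331, edgeR). For MYLK3, the smooth muscle kinase MYLK had 217 ± 3.49 CPM in M + E2 and 217 ± 88.3 in Milk, and the skeletal muscle kinase MYLK2 had 5.37 ± 0.345 and 3.60 ± 0.750. In the Golgi list 0 of 10 genes were above 0 in M + E2 relative to Soy or to M + G, with medians of −0.21 and −0.22. For SIX2, its paralog SIX5 had 47.1 ± 7.06 CPM in M + E2 and 23.0 ± 4.76 in Sow (0.81 ± 0.22, adjusted p = 0.0443, edgeR), which passed the p but not the 2-fold threshold.

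**Figure D4:**
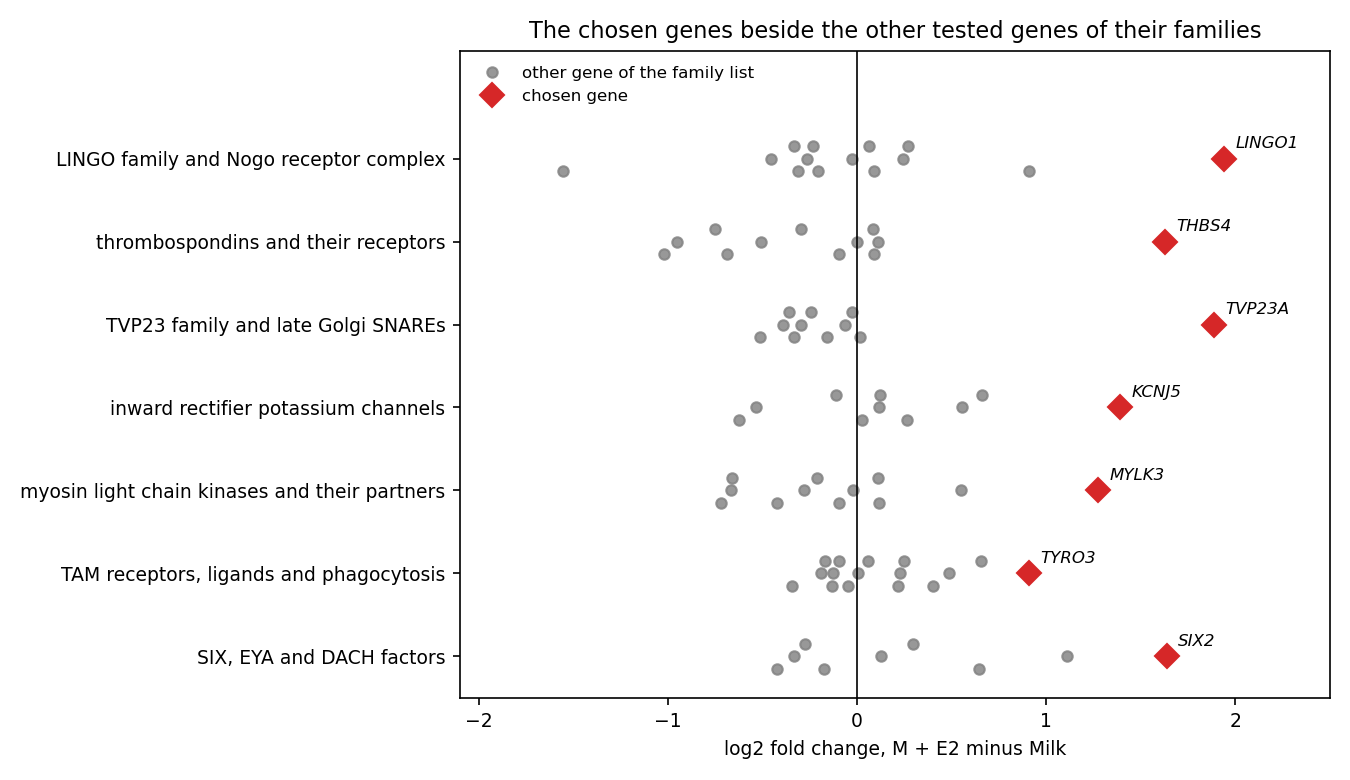
Log2 fold change of M + E2 minus Milk (horizontal axis) for the 7 chosen genes (red) and 76 other tested genes of their family lists (grey, 1 row per list; COMP is left out, with 3 reads or fewer in both groups). The chosen genes lie to the right of their own lists, where the other genes run from −1.56 (MAG) to 1.11 (SIX4), as the choice by M + E2 values would give.

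The levels of the estrogen receptors were as follows. ESR1 had 17.5 ± 3.35 CPM in M + E2, 17.2 ± 1.18 in M + G, 14.7 ± 1.36 in Soy, 14.7 ± 2.69 in Sow and 12.3 ± 4.51 in Milk. ESR2 had 1.20 ± 0.368 CPM in M + E2, 0.712 ± 0.189 in M + G, 0.738 ± 0.514 in Soy, 0.943 ± 0.225 in Sow and 0.653 ± 0.083 in Milk. GPER1 had 1.67 ± 0.461 CPM in M + E2, 2.21 ± 1.35 in M + G, 2.91 ± 3.79 in Soy, 0.842 ± 0.652 in Sow and 3.95 ± 4.42 in Milk. None of the 3 was called in any pair. Of the 20 tested genes on a list of estrogen receptors and well-known response genes, none was called in any pair either. Of all genes, 1.44% were called higher in M + E2 than in Sow, 0% than in Milk, 0.0256% than in Soy and 0% than in M + G. No lack of response was therefore read from this count. On the list 2 genes, RARA and RET, had their M + E2 libraries above all others, beside 2.71% of all genes. RARA, a retinoic acid receptor of that list, came closest, at 117 ± 6.21 CPM in M + E2 and 62.5 ± 9.57 in Sow (0.71 ± 0.17, adjusted p = 0.0402, edgeR), below 2-fold.

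Markers of cell types also differed between the libraries. The summed level of 10 Sertoli cell markers, all present in the table and none at 0, was 5962 to 6874 CPM in M + E2, 2943 to 6141 in M + G, 4148 to 4528 in Sow, 3061 to 3895 in Soy and 2534 to 4187 in Milk. CLU made up 67.4% to 77.9% of this sum. M + G 3, the library that came nearest to M + E2 for 5 of the 7 genes, was the only one outside M + E2 with a Sertoli sum in the M + E2 range. AMH, the Sertoli cell hormone, had 1198 ± 73.8 CPM in M + E2 and means of 464 to 702 CPM in the other diets, and with FSHR and WT1 it was 1 of 3 of the 10 markers whose M + E2 libraries exceeded all others. Other markers of the list did not have this pattern, and KITLG had 60.2 ± 9.07 CPM in M + E2 and 121 ± 30.0 in Sow, while CLDN11 had 199.9 ± 29.3 in M + E2 and 250.3 ± 65.9 in Sow. GATA1, the only Sertoli marker called in M + E2 against Sow, had 1.51 ± 0.798 CPM in M + E2, 1.59 ± 0.509 in M + G, 1.01 ± 0.209 in Soy, 0.751 ± 0.132 in Milk and 0.218 ± 0.0642 in Sow, where no library had more than 2 reads. In this pair 1.44% of all genes were called higher.

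Divided by the Sertoli marker sum, a calculation added after the data were seen, M + E2 stayed above all 12 other libraries for 2 of the 7 genes, TVP23A and SIX2, beside 0.064% of all genes (10). Nothing was read from this count, which uses the values that chose the genes. The lowest M + E2 library was 1.01 times the highest other for SIX2, within the counting error of its few reads, 1.15 times for TVP23A and 0.985 times for LINGO1. The ratio of mean levels between M + E2 and Milk went from 3.91 to 2.16 for LINGO1, from 3.78 to 2.06 for TVP23A, from 3.15 to 1.72 for THBS4, from 2.67 to 1.43 for KCNJ5, from 2.46 to 1.32 for MYLK3 from 3.20 to 1.75 for SIX2 and from 1.91 to 1.04 for TYRO3. The ratio of TYRO3 to Milk was thus close to that of the marker sum, and the others exceeded it. Against M + G, the ratio per Sertoli marker level was 0.880 for TYRO3, 1.09 for THBS4, 1.16 for MYLK3 and 1.31 for KCNJ5. It was 1.78 for LINGO1, 2.37 for TVP23A and 2.73 for SIX2. M + G 2 had a Sertoli sum of only 2943 CPM, against 5182 in M + G 1 and 6141 in M + G 3. On this scale M + G 2 was the highest library outside M + E2 for LINGO1, THBS4, TVP23A, MYLK3 and TYRO3. The ratios to M + G thus depended on M + G 2, and the value under 1 for TYRO3 rested on it. Which cells express these genes was not measured, and the part of the Sertoli level in the results was not tested.

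**Figure D5:**
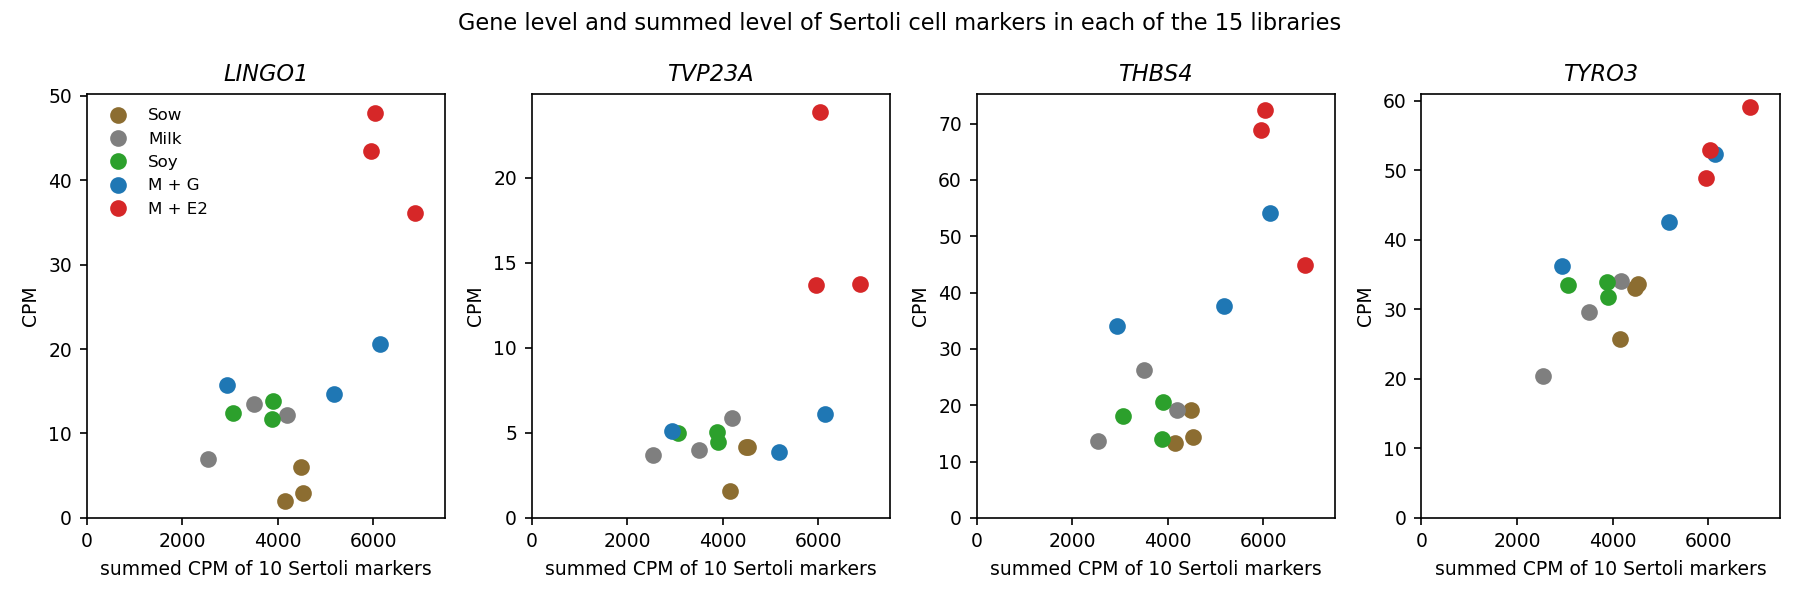
CPM of LINGO1, TVP23A, THBS4 and TYRO3 (vertical axes, starting at 0) against the summed CPM of 10 Sertoli markers (horizontal axis) in each of the 15 libraries, coloured by diet. TYRO3 in M + G 3, with a sum of 6141 CPM, lies among the M + E2 points, while LINGO1 and TVP23A in that library lie well below them.

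Summed germ cell markers were 238 to 297 CPM in M + E2 and 110 to 249 CPM in the other diets, with overlap. Relative to Sow, 3 of 6 genes of this list were above 0 in M + E2, with a median log2 fold change of −0.15. In M + E2 5 of the 6 were above 0 relative to Milk (median 0.56), Soy (0.43) and M + G (0.72), and none was called. In these pairs 0%, 0.0256% and 0% of all genes were called higher. Summed Leydig cell markers were 15470 to 16761 CPM in M + E2 and 12643 to 29947 CPM elsewhere, with 1 Milk library below M + E2, and STAR, which carries cholesterol into mitochondria, was called lower in M + E2 than in Sow at 1271 ± 460 against 3593 ± 439 CPM. The share of all genes called lower in this pair was not counted. Of 13 cell type lists, 1 had M + E2 outside all other libraries, which was epididymal or rete epithelium at 68.3 to 104 CPM against at least 108 CPM. Of its 6 genes, 1 was above 0 in M + E2 relative to Sow, 4 relative to Milk (median log2 fold change 0.52), 4 relative to Soy (0.18) and 1 relative to M + G, so the sum and the median differed in sign against Milk and Soy. Summed ribosomal protein genes, a sign of RNA composition, were 31611 to 48339 CPM in M + E2 and 71373 to 129961 in Sow. In this pair 3 of 57 were called, each as a decrease, again without a count over all genes beside them. The other formula groups also lay below Sow and overlapped M + E2. There these genes summed to 34654 to 50462 CPM in M + G, 29320 to 70516 in Soy and 30406 to 71272 in Milk. With their mean as a covariate the count of members called against Sow fell from 5 to 1, LINGO1, and that against Soy rose from 3 to 5, while over all genes they went from 225 to 2 and from 4 to 37. Markers of striated muscle, nerve and tendon, where MYLK3, LINGO1 and THBS4 are best known, were 49.7 to 77.0, 101 to 109 and 841 to 1291 CPM in M + E2, overlapping the other diets. SLC4A1 of the erythroid list was the other marker called against Sow, at 2.37 ± 2.41 CPM in M + E2 and 0.276 ± 0.159 in Sow, where no library had more than 3 reads. In M + E2 against Sow 1.44% of all genes were called higher. The part of these lists in the results was not tested.

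The genes next to the 7 on the chromosome were also looked at. Of the 14 nearest protein-coding neighbours, 10 were tested, and 0 were called between M + E2 and another diet. Of all genes, 1.44% were called higher against Sow, 0% against Milk, 0.0256% against Soy and 0% against M + G. Nothing was therefore read from the count of neighbours. The largest difference was that of TEKT5, a tektin of sperm flagella beside TVP23A, at 1.28 relative to M + G on the log2 scale, with 4.28 CPM in M + E2 and 1.73 in M + G. TEKT5 was at 1.20 relative to Milk, 1.13 relative to Soy and 0.54 relative to Sow. ARHGAP32, beside KCNJ5, was at 61.0 CPM in M + E2 and 25.9 to 38.8 CPM in the means of the other diets. SIX3, the neighbour and paralog of SIX2, was near 0.1 CPM or below in all diets.

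For each gene the 3 genes with the most similar pattern were sought among 12293 genes with a symbol, by Pearson's r of log2 CPM over the 15 libraries. The libraries share depth and cell makeup, so these values are descriptions. LINGO1 was most like GRIK5, a kainate receptor subunit (r = 0.954), LGR5, a Wnt pathway receptor (0.936), and HEY2, a Notch target (0.923). GRIK5 had 40.6 CPM in M + E2 and 19.5 CPM on average elsewhere. TVP23A was most like NRG1, a ligand of ERBB receptors (0.936), DCLK2 (0.925) and CERS4, a ceramide synthase (0.907). THBS4 was most like BICD1 (0.929), STIM2, a calcium sensor (0.924), and TSPYL2 (0.907).

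TYRO3 was most like the proteoglycans SPOCK2 (0.944) and GPC4 (0.942) and the sorting receptor SORL1 (0.930). MYLK3 was most like TCF23 (0.909), RGS7, which shortens G protein signals (0.897), and TYRO3 (0.889), the only member among the 21 genes listed. KCNJ5 was most like LMO1 (0.839), SLITRK2 (0.788) and GSDME (0.777), and SIX2 like CPNE4 (0.853), NMNAT3 (0.851) and SMIM31 (0.846). Of the 21 listings, 10 had M + E2 above all other libraries, beside 2.71% of all genes. The members were chosen by their M + E2 values, so genes like them tend to share this pattern, and nothing was read from that count. Of the 21, 17 stayed among the 3 nearest without Sow 2, and 4 did so by Spearman's rho. The lists of like genes thus depended strongly on the measure of likeness.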

How the data were processed

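Testis RNA of 15 piglets was sequenced. The authors removed nucleotides below Q25 and reads with more than 2 ambiguous bases, mapped reads with CLC Genomics Workbench 20.01, first to a curated pig gene library and then to Ensembl build 11.1, and deposited counts of reads per gene, without normalization. Whether these counts hold reads of both steps is not given in the sources used here. All values were whole numbers and no column of values was left unused. Groups came from the labels, and gene names from the table and, for 810 Ensembl identifiers, from a gene name table. Positions are those of RefSeq on Sscrofa11.1.

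Counts were analysed with edgeR 4.0.16 in R 4.3.3 (limma 3.58.1, DESeq2 1.42.0), with TMM normalization, filterByExpr (minimum count 10) and a prior count of 2 for log2 CPM. The method was tested on simulated data. The authors used edgeR's exact test, run here as an alternative. The 7 members, the 22 gene lists and the tests were chosen with earlier results of these data known. Named were all members, the 3 genes most like each, called genes of each list (ribosomal ones only counted), any gene of the family lists, and the estrogen receptors. RARA, RET, the neighbouring genes and the uncalled markers were named after their values were seen. Replicates are separate piglets. Depth limits SIX2 most, and the MYLK3 gap between M + E2 1 (50 reads) and M + G 3 (62 reads) was also within counting error. Deviations of equal-numbered libraries correlated at 0.242, 0.531 and 0.442 between Milk and M + G. For M + E2 the values were −0.358 to −0.0669 with Milk and −0.154 to 0.134 with M + G. Other equal-numbered libraries ranged from −0.505 (Milk 2 and Soy 2) to 0.522 (Sow 3 and Soy 3). Libraries of unequal number were not compared, so a pairing was not tested, and no source states one.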

Additional observations from a re-analysis of the deposited data

How the results depend on the processing

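Of 186 recalculated counts of called members, 144 were equal to the main value or within 1.5 times of it, and 42 were not. The main count was 0 in all comparisons but M + E2 against Sow (5) and against Soy (3), so elsewhere an unchanged count was one that stayed at 0. The count against Sow stayed in 10 of 16 recalculations and that against Soy in 7 of 17. The cause of each change was not tested. Leaving out 1 library at a time gave 0 to 1 members in M + E2 against Sow, 0 to 6 against Milk and 0 to 3 against Soy. With all 3 Sow libraries, 2 members were called in M + G against Sow and 1 among the 4 diets without estradiol. In fits of only the groups compared, 1 was called in M + E2 against Soy and 2 in M + G against Sow. Without a filter there were 3 in M + E2 against Milk, 1 against M + G, and 1 in M + G against Sow. With the ribosomal covariate there was 1 in M + E2 against Sow and 5 against Soy. DESeq2's Wald test gave 5 in M + E2 against Milk, 2 against M + G, 1 in Soy against Sow, 2 in M + G against Sow and 1 in Soy against M + G, and its likelihood-ratio test 2 among the 4 diets. The exact test gave 5 in M + E2 against Milk, 5 against Soy, 3 against M + G, 1 in Soy against Sow, 2 in M + G against Sow and 1 in Soy against M + G. Per Sertoli marker level, added after the data were seen, 2 genes and not 4 had M + E2 above all others.

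The replicate block was fitted over the 13 numbered libraries, Sow 2 included. It gave 1 member in M + E2 against Milk, 0 against Soy, 1 in Soy against Sow, 2 in M + G against Sow and 2 among the 4 diets, beside 1, 0, 2477, 2048 and 895 of 15697 genes. The same 13 libraries without the block, added later, gave 0 in M + E2 against Soy, 1 in Milk against Sow, 1 in Soy against Sow, 2 in M + G against Sow and 1 among the 4 diets, beside 0, 13, 2260, 1731 and 35 genes. The replicate block changed no other count of members, and M + G against Milk, where deviations of equal-numbered libraries correlated positively, stayed at 0.

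Over all genes the counts called ranged from 0 to 1421 in M + E2 against Sow (225 in the main fit), 0 to 741 against Milk (0), 0 to 74 against Soy (4), 0 to 44 against M + G (0), 0 to 30 in Milk against Sow (3), 0 to 2477 in Soy against Sow (2), 1 to 2048 in M + G against Sow (9), 0 to 6 in Soy against Milk (0), 0 to 2 in M + G against Milk (0), 0 to 10 in Soy against M + G (0) and 1 to 895 among the 4 diets (5). The upper ends in M + E2, Soy and M + G against Sow came from the block on the 13 numbered libraries, of which the same libraries without the block gave 1195, 2260 and 1731.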
